A study of Mus musculus with 24 samples.

Results

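The genes described here are 10 negative regulators of receptor signaling in mouse natural killer (NK) cells: the tyrosine phosphatases Ptpn6, Ptpn11 and Ptpn22, the lipid phosphatase Inpp5d, the ubiquitin ligases Cblb and Cbl, the phosphatase-like protein Ubash3b, the diacylglycerol kinases Dgka and Dgkz, and the kinase Csk. They were chosen by name, as the genes of the deposited table whose gene name equals 1 of these 10 symbols, and each symbol matched 1 gene, so they are 10 of 45237 genes in all. RNA was sequenced from NK cells of wild-type C57BL/6J mice that carried no tumor or that had received 1 of a pair of tumor lines, and 24 libraries fall into 7 groups. RMA is a T cell lymphoma line that displays MHC class I. RMA-KR was made from RMA by removing B2m, which is needed to display MHC class I, and by adding Rae1-β, a ligand of the activating receptor NKG2D, and it was cloned by limiting dilution, so it stands for 1 clone. By the study's account both lines carried ZsGreen, a fluorescent protein, and tumor cells were injected into a vein before NK cells were taken from the spleen.

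The control group holds 4 libraries from mice without treatment. The RMA groups hold 3 libraries at day 2 (early), 3 at day 4 (intermediate) and 3 at day 9 (late). The RMA-KR groups hold 3 libraries at day 2 (early), 5 at day 7 (intermediate) and 3 at day 14 (late), so at the intermediate and late stages the tumor and the day differ together and cannot be told apart. All mice were of the wild-type genotype, and by the study's methods they were female and 7 to 9 weeks of age unless stated otherwise. NK cells were sorted as cells stained for NKp46 and NK1.1 and, among other markers, not for CD3, CD5 or T cell receptors. The labels number separate samples without saying whether each is 1 mouse, while the study counts its late groups in mice, and p-values here measure the spread between these samples.

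When an activating receptor on an NK cell is engaged, Src family kinases phosphorylate adaptor chains, and Syk family kinases pass the signal to phospholipase C, phosphatidylinositol 3-kinase and the Ras pathway. Inhibitory receptors that bind MHC class I carry short cytoplasmic motifs known as ITIMs, which recruit the phosphatases SHP-1, SHP-2 and SHIP-1, the products of Ptpn6, Ptpn11 and Inpp5d, to remove phosphate from these intermediates. Other brakes act without such receptors: Csk switches off Src family kinases, Cbl proteins attach ubiquitin to active kinases, and diacylglycerol kinases consume the diacylglycerol that phospholipase C makes.

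Each library held between 5138651 and 14863500 counts, with a median of 10489204. All 10 genes passed the filter on low counts, which kept 17097 of 45237 genes (37.8%), and between 414 and 12419 reads were counted for any of them in any library. Levels are given as a gene's counts relative to the library total, after TMM scaling between libraries, on the usual CPM scale (normalized CPM). A gene was called different when the adjusted p of edgeR's test, corrected over all 17097 genes, was under 0.05, and log2 fold changes are given with their standard error (SE) and 95% interval. Shares called by DESeq2 with default settings are not over all 17097 genes. They are over the genes counted as tested by DESeq2, which were 9804 to 14669 depending on the comparison. Every comparison against control uses the same 4 control libraries, so the values of those comparisons are not independent of each other.

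The NK cell label was checked against marker genes, which were summed in each library. All 11 NK cell markers were measured, their sums lay between 19376 and 34935 normalized CPM, and Gzma was the most abundant. Of these, Eomes was called lower in RMA late and across the 7 groups. The 8 B cell markers summed to between 218 and 492, most of it Ighm with a mean of 336, while Ms4a1 reached at most 2.99. No B cell marker was called in any comparison. Their median log2 fold change was -1.77 in RMA intermediate, -0.84 in RMA early and -1.46 in RMA intermediate against RMA-KR intermediate. In the other comparisons it lay between -0.69 and 0.2. Among the 10 T cell markers, which RMA cells could also carry, the sums lay between 282 and 596. Trbc1 was the most abundant at a mean of 286, followed by Trbc2 at a mean of 103. Cd3d reached at most 30.6, Cd3g 24.2, Cd5 23.5, Cd3e 5 and Cd4 2.05. Trbc1 was the 1 marker called in the test across the 7 groups. The sum of the 10 markers was 391, 342, 388 and 414 in the controls, 596, 504 and 467 in RMA late, and 506, 415 and 420 in RMA-KR late. None of the 8 tested was called in the 9 comparisons. Their median was 0.52 log2 units in RMA late, -0.37 in RMA-KR late and 0.7 in RMA late against RMA-KR late, and the part of this in the results of the late groups was not tested. The 6 plasma cell markers summed to between 240 and 573, with Xbp1 the most abundant, and Igkc was called across the 7 groups. Igkc was at 134 and 26.3 in RMA-KR late 2 and 3 and at 59.1 in RMA-KR early 1, and at most 10.6 in the other 21 libraries. Jchain was at 17.7 and 13.8 in RMA-KR late 2 and 3 and at 9.64 in RMA-KR early 1, and at most 5.82 elsewhere. None of the 4 plasma cell markers tested was called in the 9 comparisons, and their median log2 fold change was 1.97 in RMA-KR late, 1.18 in RMA-KR early and -3.06 in RMA late against RMA-KR late. Whether such cells contributed to the values of the 10 genes in those libraries was not tested. The 7 granulocyte markers summed to at most 12.4 and the 6 red blood cell markers to at most 3.70, and of these 13 genes only 1 had enough counts to be tested, which was not called.

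The 9 macrophage and monocyte markers summed to between 144 and 589 normalized CPM, and the most abundant was Ly6c2, a gene that NK cells also express, with a mean of 312 and a range of 76.4 to 570. Cd68 reached at most 77.99, Lyz2 17.2 and Csf1r 6.25, while Adgre1 was at 1.60 or less and C1qa at 0.486 or less in every library. The sum was 359, 488, 579 and 419 in the controls, 212, 313 and 205 in RMA late, and 155, 218 and 144 in RMA-KR late. Ly6c2 was called lower than control in both late groups, while the median log2 fold change of the 4 tested markers was 0.88 in RMA late and 0.18 in RMA-KR late, and the part of this difference in the results of the late groups was not tested. In bulk RNA, fewer cells of a type and less RNA per cell cannot be told apart.

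Some libraries stood apart. On a map of distances between libraries, RMA early 1, RMA early 2 and RMA-KR late 3 lay away from the other libraries and from each other. RMA-KR late 1 held the highest level of all libraries for Ptpn22 (1106) and Ubash3b (335) and the lowest for Ptpn6 (189). Values without that library are given with those genes. The 16 immediate early genes, which many stimuli induce within minutes, summed to 2003 normalized CPM in control 4 and to 1727, 2000 and 1820 in RMA-KR intermediate 3, 4 and 5, against 5057 to 12393 in the other 20 libraries. The same 4 libraries had the most genes detected (27820, 24676, 26285 and 24621), and RMA-KR intermediate 3, 4 and 5 had the lowest sums of NK cell markers (20694, 20579 and 19376). Among the other 20 libraries, those of RMA intermediate and RMA late had the lowest sums of immediate early genes, between 5057 and 6672. Controls 1, 2 and 3 were at 8574, 9066 and 10678. The part of this difference in the results of these groups was not tested. Egr1 was the 1 immediate early gene called against control, higher in RMA-KR late, and Fosb and Egr1 were called across the 7 groups. Leaving out RMA early 1 and 2, or the 4 libraries low in immediate early genes, was an alternative chosen after the data were seen. Leaving out RMA-KR late 3 alone changed no call of the 10 genes: against control Ptpn22 was then at 0.95 (adjusted p = 0.0252), Ubash3b at 0.75 (0.170), Ptpn11 at 0.73 (0.484), Ptpn6 at -0.6 (0.479) and Csk at -0.48 (0.447) log2 units in RMA-KR late.

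Per length, Ptpn6 was the most abundant of the 10 genes in control NK cells and Ptpn11 the least. Normalized CPM per kilobase of the longest coding transcript was 184 ± 29.0 (SD, n = 4) for Ptpn6 and 166 ± 21.4 for Ptpn22. Dgka followed at 116 ± 14.89, Csk at 82.7 ± 11.6 and Inpp5d at 63.5 ± 18.7. A lower set held Dgkz at 28.9, Ubash3b at 25.8, Cblb at 23.8, Cbl at 19.0 and Ptpn11 at 17.7 on the same scale. Only the steps from Ptpn22 to Dgka and from Inpp5d to Dgkz separated neighbours in this order without overlap of the 4 controls, and the order of the other neighbours is within their spread. The order depends on the length used. With the median transcript length in the deposited table Cbl moves from rank 9 to rank 2, while Ptpn6 stays at rank 1 and Ptpn11 at rank 10 with that length and with the union of all exons.

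Short antisense overlaps touch 3 of the genes, and the strand setting of the counting was not stated, so a small share of their reads is uncertain. Exons of Ptpn6 share 195 bases with Gm20531 on the opposite strand, those of Dgka 105 bases with Pmel, and those of Dgkz 222 bases with Gm9821. The overlapping genes were low in every library, with at most 0.946 normalized CPM for Gm20531, 6.28 for Pmel and 13.9 for Gm9821.

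**Figure D1:**
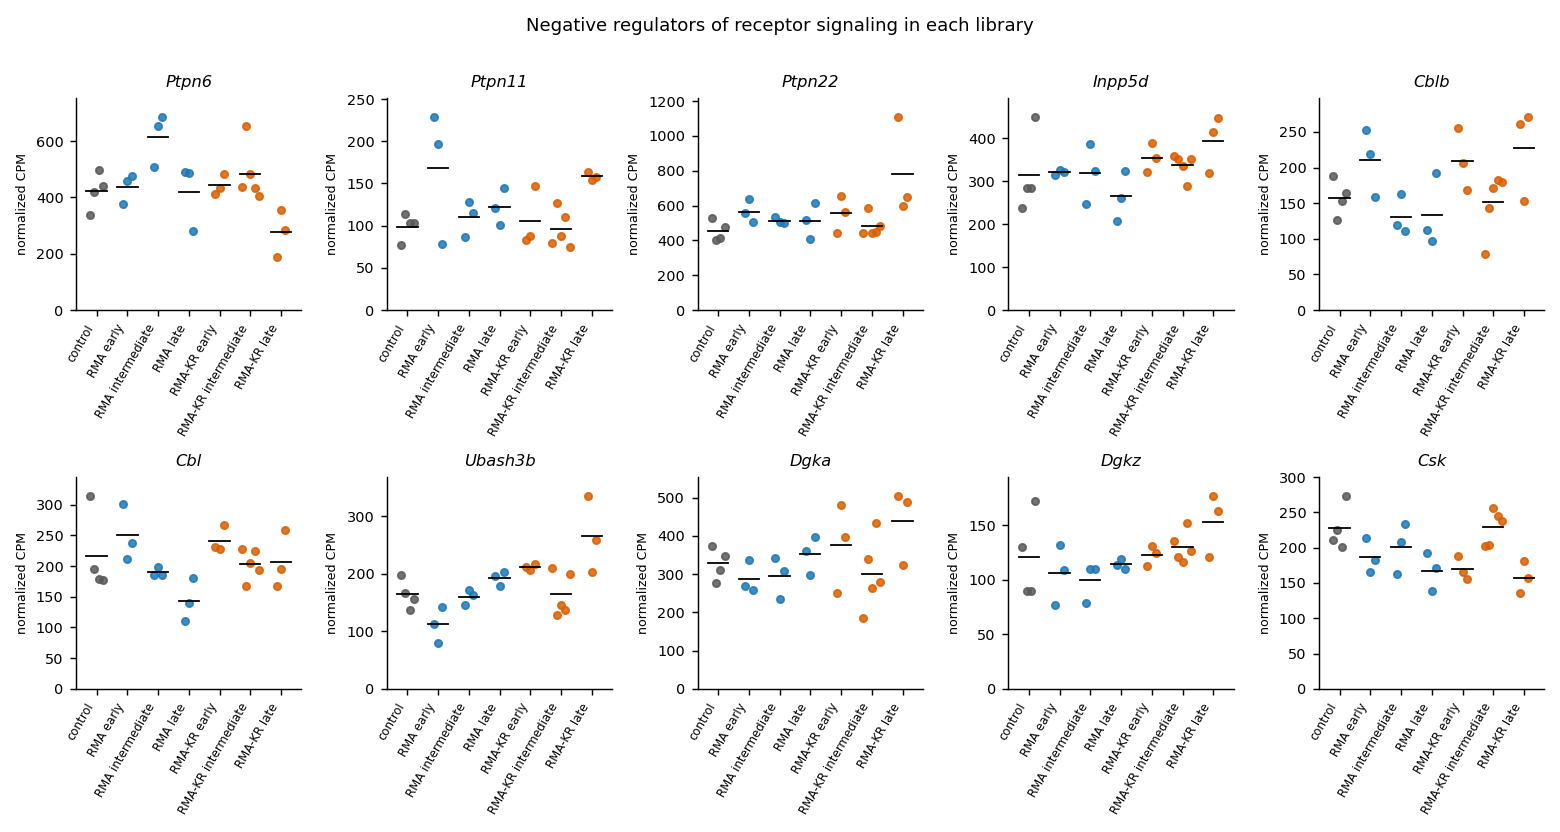
Normalized CPM (vertical axis, starting at 0) of each of the 10 genes in each of the 24 libraries (points), by group along the horizontal axis, with a black line at the group mean. Grey is control, blue RMA and orange RMA-KR. Ptpn22 and Ubash3b reached their highest group mean in RMA-KR late, and Ptpn6 had its lowest there and its highest in RMA intermediate.

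Of the 10 genes, 3 are shown with the 250 bases before their transcription start. Ptpn22 was chosen because it was called in RMA-KR late against control, and Ubash3b because it was called across the 7 groups. Ptpn6 was chosen because it varied most between groups among the ITIM-bound phosphatases. The sequences are those of the RefSeq promoter table on GRCm38.p6, which held all 10 of 10 genes, and they are written 5′ to 3′ on the strand of the gene. Capitals mark matches, on either strand, to 4 motifs: TTCNNNGAA, bound by STAT proteins (in 7.02% of the 32851 promoters of the table), TGANTCA, bound by AP-1 (6.75%), TGTGGT, bound by RUNX proteins (14%), and GGAAGT, bound by ETS proteins (19.7%). Ptpn6 is at chr6:124738710-124738959 on the minus strand, Ptpn22 at chr3:103859545-103859794 on the plus strand and Ubash3b at chr9:41158063-41158312 on the minus strand. The table lists 2 starts for Ptpn22 and 2 for Ubash3b, and the farthest upstream of the table is shown, which for Ubash3b lies inside the annotated span of the gene.
Ptpn6: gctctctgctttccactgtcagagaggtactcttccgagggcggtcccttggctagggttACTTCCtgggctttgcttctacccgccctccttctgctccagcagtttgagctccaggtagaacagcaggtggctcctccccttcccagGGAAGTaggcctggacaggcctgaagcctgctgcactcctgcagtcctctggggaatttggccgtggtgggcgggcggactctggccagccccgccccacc
Ptpn22: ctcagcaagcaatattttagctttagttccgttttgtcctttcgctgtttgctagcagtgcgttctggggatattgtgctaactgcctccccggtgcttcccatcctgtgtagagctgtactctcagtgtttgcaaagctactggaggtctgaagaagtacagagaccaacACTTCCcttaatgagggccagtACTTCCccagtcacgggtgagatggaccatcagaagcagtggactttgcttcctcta
Ubash3b: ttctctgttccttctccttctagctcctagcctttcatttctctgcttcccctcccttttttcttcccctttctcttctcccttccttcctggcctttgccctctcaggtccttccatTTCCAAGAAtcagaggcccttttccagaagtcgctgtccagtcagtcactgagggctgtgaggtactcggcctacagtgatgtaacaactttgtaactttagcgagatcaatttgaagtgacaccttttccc
Ptpn6 and Ptpn22 each held 2 matches to GGAAGT and none to the other motifs, and Ubash3b held 1 match to TTCNNNGAA. Inpp5d and Dgkz each held 1 match to GGAAGT, and Ptpn11, Cblb, Cbl, Dgka and Csk held none of the 4. A match describes these letters in this window and shows no binding.

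Ptpn6 (ENSMUSG00000004266, chr6:124720707-124738714, minus strand, mm10) encodes SHP-1, the main phosphatase recruited by ITIM receptors of NK cells. Its level was 337, 420, 498 and 440 normalized CPM in the controls, 378, 458 and 476 in RMA early, 508, 653 and 684 in RMA intermediate, and 490, 487 and 282 in RMA late. It was 413, 435 and 485 in RMA-KR early, 437, 655, 484, 433 and 404 in RMA-KR intermediate, and 189, 354 and 284 in RMA-KR late. All 3 RMA intermediate libraries lay above all 4 controls, and 2 of 3 RMA-KR late libraries lay below them while RMA-KR late 2 lay within their range.

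Neither difference passed the adjusted test in the fit of all 24 libraries. In RMA intermediate the log2 fold change of Ptpn6 was 0.54 (SE 0.21, 95% interval 0.1 to 0.98, adjusted p = 0.240), which passed with only the libraries of the compared groups (0.0484), where 10.2% of all genes passed. In RMA-KR late it was -0.62 (SE 0.22, interval -1.07 to -0.17, adjusted p = 0.216), and -0.42 without RMA-KR late 1. In RMA late it was -0.01 (interval -0.46 to 0.43, adjusted p = 0.993), where RMA late 3, at 282, lay apart from the other 2 libraries; without RMA late 3 it was 0.25. Set directly against each other, RMA late exceeded RMA-KR late by 0.61 (SE 0.23, interval 0.13 to 1.08, adjusted p = 0.655). Across the 7 groups Ptpn6 reached an adjusted p of 0.0634 with edgeR and 0.00498 with DESeq2. It passed with edgeR when any 1 of 3 libraries was left out: RMA late 3 (adjusted p = 0.0362), RMA-KR intermediate 2 (0.0461) or RMA-KR late 2 (0.0405). With all 24 libraries it also passed without a filter (0.00400) and with at least 10 counts in every library (0.0214). It did not pass with DESeq2's size factors in edgeR (0.0559) or with the replicate number as a block (0.0596). Nor did it pass without the 4 libraries low in immediate early genes or without RMA early 1 and 2. The highest adjusted p of Ptpn6 among these settings was 0.105. From the lowest group mean, 276 ± 82.8 (SD, n = 3) in RMA-KR late, to the highest, 615 ± 94.2 (n = 3) in RMA intermediate, the ratio was 2.23.

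Ptpn11 (ENSMUSG00000043733, chr5:121130533-121191397, minus strand) encodes SHP-2, which binds ITIM receptors as SHP-1 does and also helps growth factor signals reach Ras. Its level was 76.5, 114, 103 and 103 normalized CPM in the controls, 228, 197 and 78.5 in RMA early, 87.0, 129 and 115 in RMA intermediate, and 121, 101 and 145 in RMA late. It was 83.2, 87.8 and 147 in RMA-KR early, 80.0, 127, 87.5, 110 and 75.1 in RMA-KR intermediate, and 164, 155 and 157 in RMA-KR late. The 3 RMA-KR late libraries lay close together and above all controls, and RMA early 1 and 2 were the highest of the 24 libraries while RMA early 3 lay within the control range.

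In RMA-KR late the log2 fold change of Ptpn11 was 0.68 (SE 0.28, interval 0.1 to 1.26, adjusted p = 0.311). In RMA early it was 0.76 (SE 0.28, interval 0.18 to 1.34, adjusted p = 0.692), and RMA early against RMA-KR early gave 0.66 (SE 0.3, interval 0.04 to 1.29, adjusted p = 0.376). Both early values rest on RMA early 1 and 2, the libraries that stood apart: without these libraries the values were -0.32 (adjusted p = 1.00) and -0.41 (adjusted p = 0.904). Without RMA early 3 the value against control was 1.14 and passed the test (adjusted p = 0.0376).

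Ptpn22 (ENSMUSG00000027843, chr3:103859795-103912247, plus strand) encodes PEP, a phosphatase of lymphocytes that removes activating phosphate from Src family and Syk family kinases. Its level was 526, 401, 412 and 478 normalized CPM in the controls, 557, 636 and 503 in RMA early, 533, 504 and 499 in RMA intermediate, and 514, 406 and 616 in RMA late. It was 441, 656 and 565 in RMA-KR early, 442, 585, 440, 450 and 485 in RMA-KR intermediate, and 1106, 598 and 647 in RMA-KR late. All 3 RMA-KR late libraries lay above all 4 controls, with RMA-KR late 1 far above the other 2, and the other tumor groups overlapped the controls.

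Ptpn22 rose in RMA-KR late against control, with a log2 fold change of 0.79 (SE 0.19, interval 0.39 to 1.18, adjusted p = 0.0401, higher in 3 of 3 libraries). The call rests on single libraries. Without RMA-KR late 1 the value was 0.45 (adjusted p = 0.426). The adjusted p was 0.0512 without control 1, 0.134 without control 2, 0.130 without control 3 and 0.0972 without control 4, and the call held without RMA-KR late 2 (0.0172) or RMA-KR late 3 (0.0252). Without the 4 libraries low in immediate early genes, an alternative chosen after the data were seen, the value was 0.85 (adjusted p = 0.0947). The call was also lost with the replicate number as a block (0.134) and with only the libraries of the compared groups (0.142). RMA late against RMA-KR late gave -0.61 (SE 0.21, interval -1.04 to -0.19, adjusted p = 0.655), and -0.28 (adjusted p = 0.660) without RMA-KR late 1, so a difference between the models in Ptpn22 did not pass its test.

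Inpp5d (ENSMUSG00000026288, chr1:87620312-87720507, plus strand) encodes SHIP-1, which dephosphorylates the lipid product of phosphatidylinositol 3-kinase. Its level was 238, 283, 285 and 448 normalized CPM in the controls, 208, 260 and 324 in RMA late, and 318, 414 and 447 in RMA-KR late, and the other 4 groups lay between 246 and 388. The controls spread as widely as the tumor groups because control 4 was the highest library of all 24, and every tumor group overlapped them. The log2 fold change was -0.25 (interval -0.65 to 0.16, adjusted p = 0.641) in RMA late and 0.33 (interval -0.07 to 0.73, adjusted p = 0.432) in RMA-KR late. Without control 4 these values were -0.05 (adjusted p = 0.965) and 0.54 (adjusted p = 0.231), and with any 1 library left out they ran from -0.38 to -0.05 and from 0.22 to 0.54. Between the late groups, RMA minus RMA-KR, it was -0.57 (SE 0.21, interval -1 to -0.14, adjusted p = 0.655), and RMA late 3 lay above RMA-KR late 1.

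Cblb (ENSMUSG00000022637, chr16:52031225-52208048, plus strand) encodes a ubiquitin ligase that limits activation of T cells and NK cells. Its level was 188, 127, 153 and 164 normalized CPM in the controls, 253, 220 and 159 in RMA early, 119, 163 and 111 in RMA intermediate, and 113, 96.8 and 192 in RMA late. It was 255, 206 and 169 in RMA-KR early, 79.2, 143, 172, 182 and 180 in RMA-KR intermediate, and 261, 153 and 270 in RMA-KR late. Every tumor group overlapped the controls, and no log2 fold change against control had an unadjusted p under 0.05. RMA late against RMA-KR late gave the largest difference of Cblb, -0.77 (SE 0.3, interval -1.39 to -0.15, adjusted p = 0.655), with RMA late 3 above RMA-KR late 2.

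Cbl (ENSMUSG00000034342, chr9:44142976-44234049, minus strand) encodes the related ubiquitin ligase c-Cbl. Its level was 314, 196, 179 and 178 normalized CPM in the controls, where control 1 lay far above the other 3, and 110, 140 and 181 in RMA late. It was 301, 212 and 238 in RMA early, 231, 227 and 267 in RMA-KR early, and 167, 195 and 259 in RMA-KR late, and both intermediate groups lay between 168 and 229. In RMA late 2 of 3 libraries lay below all controls. The log2 fold change there was -0.59 (SE 0.21, interval -1.02 to -0.16, adjusted p = 0.163), and -0.37 (adjusted p = 0.483) without control 1. Against RMA-KR late it was -0.52 (SE 0.22, interval -0.98 to -0.07, adjusted p = 0.655).

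Ubash3b (ENSMUSG00000032020, chr9:41011098-41161697, minus strand) encodes Sts-1, a phosphatase that binds Cbl and acts on Syk family kinases. Its level was 197, 166, 136 and 156 normalized CPM in the controls, 113, 80.1 and 142 in RMA early, 145, 171 and 163 in RMA intermediate, and 195, 179 and 203 in RMA late. It was 211, 207 and 217 in RMA-KR early, 210, 128, 146, 137 and 200 in RMA-KR intermediate, and 335, 202 and 259 in RMA-KR late. The 3 RMA-KR early and the 3 RMA-KR late libraries lay above all controls, and the 3 RMA early libraries lay below all 3 RMA-KR early libraries, with RMA early 1 and 2 also below all controls.

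Ubash3b was the 1 gene of the 10 that differed across the 7 groups by edgeR (adjusted p = 0.0168), from a group mean of 112 ± 30.9 (SD, n = 3) in RMA early to 265 ± 66.4 (n = 3) in RMA-KR late, a ratio of 2.37. It passed in 23 of 24 fits that left out 1 library, and not without RMA-KR late 1 (adjusted p = 0.0635). Without RMA early 1 and 2 together, an alternative chosen after the data were seen, it did not pass (adjusted p = 0.113).

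Single comparisons of Ubash3b did not pass with edgeR. In RMA-KR late the log2 fold change against control was 0.69 (SE 0.2, interval 0.27 to 1.12, adjusted p = 0.111, and 0.0314 with DESeq2), and 0.48 without RMA-KR late 1. In RMA early it was -0.55 (SE 0.21, interval -0.98 to -0.12, adjusted p = 0.702), and -0.19 (adjusted p = 1.00) without RMA early 1 and 2, which stood apart. At day 2, where both models were sampled on the same day, RMA against RMA-KR gave -0.92 (SE 0.22, interval -1.38 to -0.46, adjusted p = 0.0777, and 0.00941 with DESeq2). That value was -1.1 (adjusted p = 0.0267) without RMA early 3, and -0.56 (adjusted p = 0.904) without RMA early 1 and 2. Between the late groups it was -0.46 (SE 0.22, interval -0.92 to -0.01, adjusted p = 0.655).

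Dgka (ENSMUSG00000025357, chr10:128720134-128744855, minus strand) and Dgkz (ENSMUSG00000040479, chr2:91932824-91975864, minus strand) encode kinases that convert diacylglycerol to phosphatidic acid and so shorten Ras and protein kinase C signals. Dgka was at 375, 278, 312 and 348 normalized CPM in the controls, 360, 299 and 398 in RMA late, and 504, 323 and 489 in RMA-KR late, with the other 4 groups between 186 and 480. Dgkz was at 130, 90.0, 89.6 and 172 normalized CPM in the controls, 114, 119 and 110 in RMA late, and 120, 177 and 163 in RMA-KR late, with the other 4 groups between 76.7 and 152. Both genes had their highest group mean in RMA-KR late, 439 ± 101 (SD, n = 3) for Dgka and 153 ± 29.2 (n = 3) for Dgkz, and both overlapped the controls in every tumor group. Between models, Dgkz in all RMA libraries lay below all RMA-KR libraries at the intermediate stage (-0.39 log2 units, adjusted p = 0.389). It did so again at the late stage (-0.42, adjusted p = 0.659). Neither Dgka nor Dgkz had an unadjusted p under 0.05 in any comparison, and their adjusted p across the 7 groups was 0.417 and 0.432.

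Csk (ENSMUSG00000032312, chr9:57626646-57653631, minus strand) encodes the kinase that phosphorylates the inhibitory tyrosine at the carboxyl end of Src family kinases. Its level was 211, 225, 201 and 273 normalized CPM in the controls, 213, 166 and 182 in RMA early, 162, 207 and 234 in RMA intermediate, and 192, 139 and 171 in RMA late. It was 189, 166 and 155 in RMA-KR early, 202, 204, 256, 245 and 237 in RMA-KR intermediate, and 135, 181 and 156 in RMA-KR late. All libraries of RMA-KR early, RMA late and RMA-KR late lay below all 4 controls, and RMA-KR intermediate lay within the control range.

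None of these 3 differences in Csk passed the adjusted test with edgeR or DESeq2. The log2 fold change was -0.42 (SE 0.17, interval -0.77 to -0.07, adjusted p = 0.516) in RMA-KR early and -0.44 (SE 0.17, interval -0.79 to -0.09, adjusted p = 0.208) in RMA late. In RMA-KR late it was -0.53 (SE 0.17, interval -0.88 to -0.18, adjusted p = 0.152). With any 1 library left out, Csk ran from -0.47 to -0.3 in RMA-KR early and from -0.61 to -0.44 in RMA-KR late. In RMA late it ran from -0.52 to -0.29, the latter without RMA late 2. Across the 7 groups the adjusted p was 0.114 with edgeR, while DESeq2 called Csk.

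**Figure D2:**
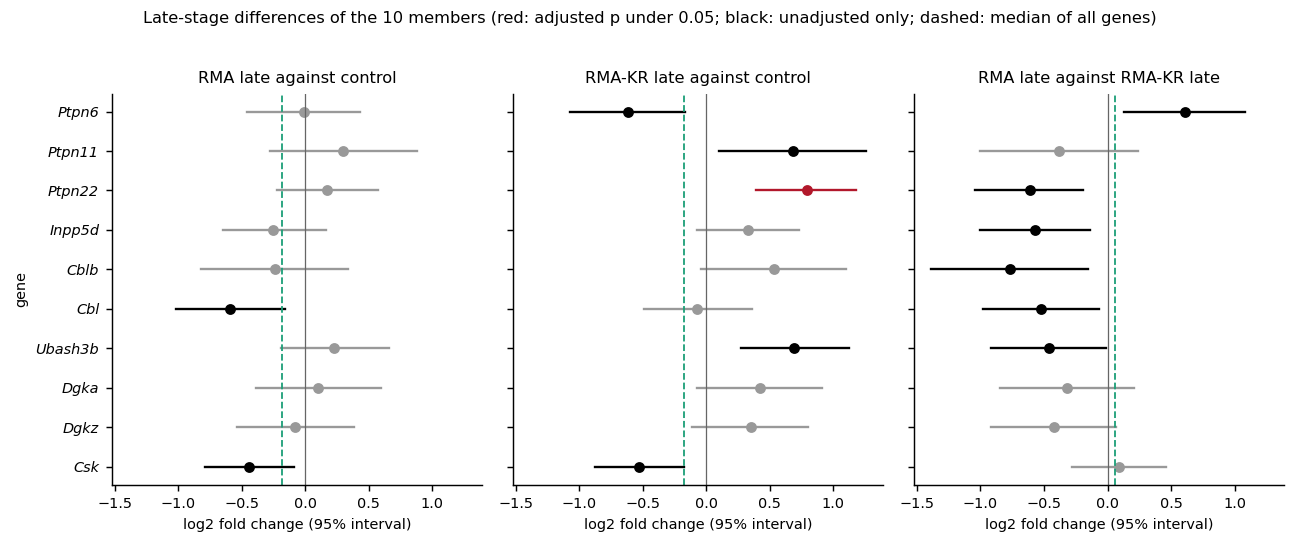
Log2 fold change (horizontal axis, points) of each of the 10 genes (vertical axis) in RMA late against control, RMA-KR late against control and RMA late against RMA-KR late, with 95% intervals from the edgeR fit as horizontal lines, red where the adjusted p is under 0.05, black where only the unadjusted p is, and grey otherwise; the dashed green line is the median of all genes. Ptpn22 in RMA-KR late is the red point, with an interval from 0.39 to 1.18, and the interval of Ptpn6 in RMA late runs from -0.46 to 0.43.

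The comparison of RMA-KR late with control asks what differs in NK cells after a long stay with a tumor that they can recognize. It gave a call for 1 of the 10 genes with edgeR, Ptpn22, where 1.22% of all genes were called. At an unadjusted p under 0.05 it held 5 of 10 (Ptpn6, Ptpn11, Ptpn22, Ubash3b and Csk), against 14.2% of all genes, and DESeq2 called 2 of 10 (Ptpn22 and Ubash3b), against 4.85%. Libraries of the groups did not overlap for 4 of 10 (Ptpn11, Ptpn22 and Ubash3b above and Csk below), against 13.6% of all genes. The median log2 fold change was 0.38 over the 10 genes and -0.18 over all genes tested, with 7 above 0 and 3 below. Shares and medians over all genes, here and below, include genes with far fewer counts than these 10. None was computed among genes of like level, so an excess among the 10 was not tested. The 5 genes with an unadjusted p of 0.05 or more lay between -0.07 and 0.53. The same counts of groups that did not overlap are given for the other comparisons. How often groups separate by chance depends on their sizes, which were not all alike, so these counts are not ranked. Against control they were 1 of 10 in RMA late (18.0% of all genes), 1 in RMA intermediate (20.7%) and 2 in RMA-KR early (10.5%). They were 0 in RMA early (7.05%) and in RMA-KR intermediate (2.63%). Between models they were 1 at the early (12.8%), 1 at the intermediate (9.18%) and 2 at the late stage (9.13%).

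RMA late against control gave 0 of 10 calls with edgeR, against 2.66% of all genes. With DESeq2 it gave 0 of 10, against 9.91% of the 10464 genes tested there. At an unadjusted p under 0.05 it held 2 of 10, Cbl and Csk, against 14.0%. The median was -0.05 over the 10 genes and -0.18 over all genes, and the other 8 genes lay between -0.25 and 0.3. RMA late against RMA-KR late gave 0 of 10 calls with edgeR, against 0% of all genes, and 0 of 10 with DESeq2, against 0.320%. At an unadjusted p under 0.05 it held 6 of 10, against 7.31% of all genes: Ptpn6 higher in RMA and Ptpn22, Inpp5d, Cblb, Cbl and Ubash3b lower. With any 1 library of these groups left out, these values ran from 0.4 to 0.83 for Ptpn6, from -0.78 to -0.28 for Ptpn22, from -0.74 to -0.38 for Inpp5d, from -1.12 to -0.59 for Cblb, from -0.72 to -0.32 for Cbl and from -0.62 to -0.26 for Ubash3b. The median was -0.44 over the 10 genes and 0.06 over all genes.

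At the intermediate stage RMA against control gave 0 of 10 calls with edgeR, against 2.35% of all genes, and 0 of 10 with DESeq2, against 6.78%, with 1 of 10 at an unadjusted p under 0.05, Ptpn6, against 15.9%. RMA-KR against control gave 0 of 10 with edgeR, against 0.0175%, 0 of 10 with DESeq2, against 0.530%, and 0 of 10 at an unadjusted p under 0.05, against 5.91%, and all 10 log2 fold changes lay between -0.13 and 0.19. RMA intermediate against RMA-KR intermediate gave 0 of 10 with edgeR, against 0.643%, 0 of 10 with DESeq2, against 2.90%, and 0 of 10 at an unadjusted p under 0.05, against 14.2%. There all 10 log2 fold changes lay between -0.39 and 0.35. Medians over the 10 genes were -0.09, 0.01 and -0.06 in these 3 comparisons, beside -0.29, 0.01 and -0.23 over all genes.

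At the early stage RMA against control gave 0 of 10 calls with edgeR, against 0% of all genes, 0 of 10 with DESeq2, against 0.551%, and 2 of 10 at an unadjusted p under 0.05, Ptpn11 and Ubash3b, against 7.04%. Without RMA early 3 edgeR called 1, Ptpn11 (adjusted p = 0.0376), against 0.443% of all genes. RMA-KR against control gave 0 of 10 with edgeR, against 0.0994%, 0 of 10 with DESeq2, against 1.55%, and 1 of 10 at an unadjusted p under 0.05, Csk, against 8.71%. RMA early against RMA-KR early gave 0 of 10 with edgeR, against 0.339%, and 2 of 10 at an unadjusted p under 0.05, Ptpn11 and Ubash3b, against 12.3%. DESeq2 called 1 of 10 there, Ubash3b, against 3.03%, and edgeR called 1, Ubash3b (adjusted p = 0.0267), without RMA early 3, against 0.997% of all genes. Medians over the 10 genes were 0.04, 0.17 and -0.01, beside -0.06, 0 and -0.03 over all genes.

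The test of any difference across the 7 groups called 1 of 10, Ubash3b, with edgeR, where 5.69% of all genes were called. At an unadjusted p under 0.05 it held 7 of 10, against 21.7% of all genes. DESeq2 called 4 of 10 (Ptpn6, Ptpn22, Ubash3b and Csk), against 18.9% of the 13399 genes it tested. With 1 library left out the count was 0 without RMA-KR late 1, against 4.42% of all genes, 2 without RMA early 3 (Ptpn11 and Ubash3b), against 5.31%, 2 without RMA late 3 and 2 without RMA-KR intermediate 2 (Ptpn6 and Ubash3b in both), against 4.93% and 6.55%, and 3 without RMA-KR late 2 (Ptpn6, Ptpn22 and Ubash3b), against 4.94%.

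SHP-1 and SHP-2 can bind the same receptors, and the ratio of the reads of their genes is given in each library as a description with no test. Ptpn6 reads per Ptpn11 read were 4.40, 3.69, 4.85 and 4.28 in the controls, 1.66, 2.33 and 6.07 in RMA early, 5.84, 5.08 and 5.94 in RMA intermediate, and 4.05, 4.84 and 1.95 in RMA late. They were 4.96, 4.95 and 3.31 in RMA-KR early, 5.46, 5.14, 5.54, 3.93 and 5.38 in RMA-KR intermediate, and 1.15, 2.29 and 1.81 in RMA-KR late. All 3 RMA-KR late libraries lay below all 4 controls, and all 3 RMA intermediate libraries lay above them. RMA early 1 and 2, which stood apart, RMA late 3 and RMA-KR early 3 also lay below the controls, and RMA early 3, 2 of 3 RMA-KR early and 4 of 5 RMA-KR intermediate libraries lay above them. In the fit of all 24 libraries neither Ptpn6 nor Ptpn11 was called in RMA-KR late or RMA intermediate. How often other pairs of genes separate from the controls in this way was not computed. For Cblb to Cbl the controls ran from 0.60 to 0.919 and RMA-KR late from 0.787 to 1.56. For Dgka to Dgkz the controls ran from 2.02 to 3.48 and RMA-KR late from 1.83 to 4.18, so both of these ratios overlapped the controls there, and every other group overlapped the controls as well.

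**Figure D3:**
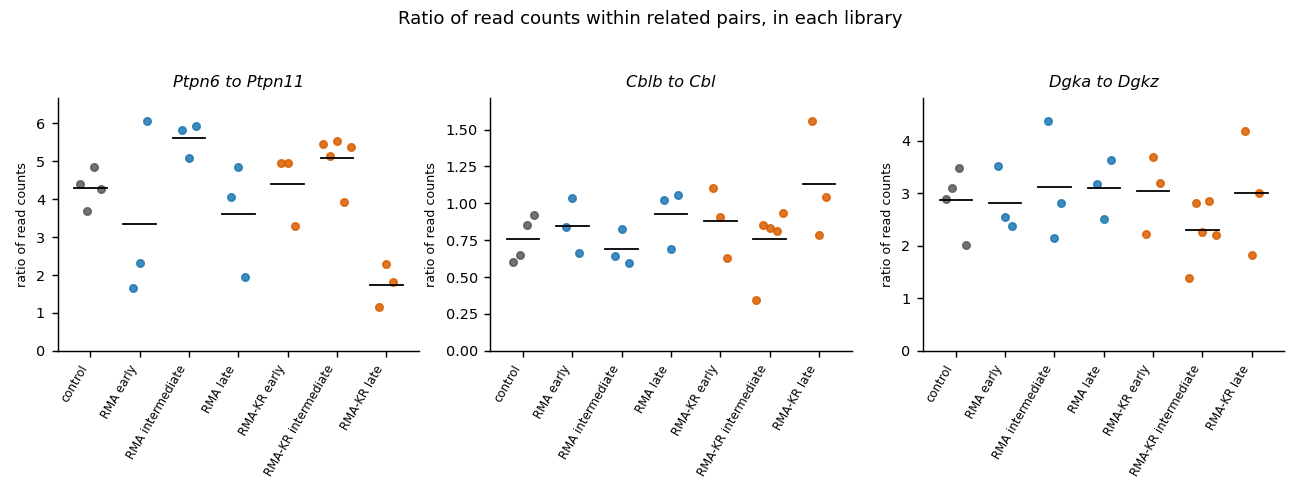
Ratio of reads of 3 pairs of related genes (vertical axis, starting at 0) in each of the 24 libraries (points), by group along the horizontal axis, with a black line at the group mean. The 3 RMA-KR late libraries have the Ptpn6 to Ptpn11 ratios 1.15, 2.29 and 1.81, below the lowest control at 3.69.

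Other genes of the pathway were counted in 3 lists. Of 39 other negative regulators, 37 were tested. Pag1, a membrane adaptor that brings Csk to Src family kinases, fell in both late groups. Its level was 38.8, 52.9, 74.9 and 65.5 normalized CPM in the controls, 19.7, 23.5 and 28.0 in RMA late, and 7.39, 22.6 and 21.4 in RMA-KR late, so both late groups lay below all controls. Against control Pag1 was at -1.29 log2 units in RMA late (SE 0.34, adjusted p = 0.0386, lower in 3 of 3 libraries) and at -1.76 (SE 0.35, adjusted p = 0.0106, lower in 3 of 3) in RMA-KR late, and between the late groups it was 0.47 (adjusted p = 0.749). In RMA-KR late the call was lost without RMA-KR late 1 (adjusted p = 0.0621) and with only the compared libraries (0.104). In RMA late it held without control 1 (0.0334) and was lost without control 2 (0.0549), 3 (0.104) or 4 (0.0940) and without RMA late 1 (0.289), 2 (0.213) or 3 (0.0664), and also with no filter (0.112), with the replicate number as a block (0.0770) and without the 4 libraries low in immediate early genes (0.125).

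Pag1 was the 1 call of edgeR among the 37 in each late comparison with control, against 2.66% of all genes in RMA late and 1.22% in RMA-KR late. At an unadjusted p under 0.05 were 2 and 4 of 37, against 14.0% and 14.2%. DESeq2 called 2 in each, against 9.91% and 4.85%, Pag1 and Rasal3 in RMA late and Pag1 and Ubash3a in RMA-KR late, all lower, with medians of -0.1 in RMA late and -0.05 in RMA-KR late beside -0.18 over all genes in both. edgeR called 0 of 37 in the other 4 comparisons against control, where 2, 4, 5 and 1 had an unadjusted p under 0.05 in RMA early, RMA-KR early, RMA intermediate and RMA-KR intermediate, against 7.04%, 8.71%, 15.9% and 5.91% of all genes, and DESeq2 called 0, 1, 1 and 0, against 0.551%, 1.55%, 6.78% and 0.530%. It called 0 of 37 in the 3 comparisons between models, where 4, 4 and 2 had an unadjusted p under 0.05 at the early, intermediate and late stage, against 12.3%, 14.2% and 7.31%, and DESeq2 called 0 in each, against 3.03%, 2.90% and 0.320%. Across the 7 groups edgeR called 2 of 37, Pag1 and Ubash3a, against 5.69% of all genes. An unadjusted p under 0.05 was reached there by 7 of 37, against 21.7%, and DESeq2 called 6, against 18.9%. Ubash3a, which encodes Sts-2, the relative of Sts-1, is named, like Rasal3, after its values were seen. It was at 79.8, 91.3, 72.5 and 137 normalized CPM in the controls and at 40.6, 46.7 and 37.5 in RMA-KR late, where Ubash3b was above the controls. Its log2 fold change there was -1.2 (SE 0.31, adjusted p = 0.0573 with edgeR, and called by DESeq2), and its adjusted p across the 7 groups was 0.0351.

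All 36 activating signaling partners were tested, and edgeR called 1 of them against control, in RMA-KR late, against 1.22% of all genes. Map4k1, a kinase below lymphocyte receptors, can limit their signal, so its place in this list does not make it an activator. It rose in RMA-KR late, from 63.9, 66.0, 39.6 and 65.0 normalized CPM in the controls to 146, 139 and 157. This is 1.33 log2 units above control (SE 0.31, adjusted p = 0.0312, higher in 3 of 3 libraries), and the call was lost without any 1 of the 7 libraries: control 1 (adjusted p = 0.0695), 2 (0.0749), 3 (0.120) or 4 (0.0781), or RMA-KR late 1 (0.0973), 2 (0.0509) or 3 (0.0692). It was also lost with the replicate number as a block (0.0502) and without the 4 libraries low in immediate early genes (0.0669). In RMA late it was 0.68 (adjusted p = 0.331), and RMA late against RMA-KR late gave -0.65 (adjusted p = 0.655). The median of the 36 in RMA-KR late was -0.14, beside -0.18 over all genes, with 11 at an unadjusted p under 0.05, against 14.2% of all genes, and 6 called by DESeq2, against 4.85%. In RMA late edgeR called 0 of 36, with 8 at an unadjusted p under 0.05, against 14.0% of all genes, 4 called by DESeq2, against 9.91%, and a median of -0.11, beside -0.18. In RMA early, RMA-KR early, RMA intermediate and RMA-KR intermediate edgeR called 0 of 36, with 2, 7, 9 and 7 at an unadjusted p under 0.05, against 7.04%, 8.71%, 15.9% and 5.91% of all genes, and 1 called by DESeq2 in each, against 0.551%, 1.55%, 6.78% and 0.530%. Between models edgeR called 0 of 36 at the early, intermediate and late stage, with 7, 3 and 4 at an unadjusted p under 0.05, against 12.3%, 14.2% and 7.31%, and 1, 0 and 0 called by DESeq2, against 3.03%, 2.90% and 0.320%. Across the 7 groups edgeR called 2 of 36, Map4k1 and Zap70, against 5.69% of all genes. Zap70, the kinase that Ubash3b and Ptpn22 products act on, had an adjusted p of 0.0158 and is named after its values were seen. An unadjusted p under 0.05 was reached across the 7 groups by 11 of 36, against 21.7%, and DESeq2 called 8, against 18.9%.

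Of 21 inhibitory receptors with ITIM or related tails, 20 were in the table and 17 were tested. With edgeR, calls against control were 2 of 17 in RMA intermediate, 5 of 17 in RMA late and 3 of 17 in RMA-KR late, all of them higher, where 2.35%, 2.66% and 1.22% of all genes were called. The medians were -0.04, 0.44 and 0.54, beside -0.29, -0.18 and -0.18 over all genes. At an unadjusted p under 0.05 were 2, 8 and 7 of 17, against 15.9%, 14.0% and 14.2%. DESeq2 called 2, 6 and 3, against 6.78%, 9.91% and 4.85%, of which 1, Cd200r1 in RMA late, was lower; it is named after its values were seen. Tigit, a receptor for nectin-like ligands that recruits SHIP-1, rose in all 3. Its level was 81.7, 66.7, 128 and 61.2 normalized CPM in the controls, 252, 329 and 334 in RMA intermediate, 383, 284 and 511 in RMA late, and 1274, 391 and 484 in RMA-KR late. All 9 of these tumor libraries lay above all controls. In that order Tigit differed from control by 1.85 log2 units (SE 0.37, adjusted p = 0.00622), by 2.22 (SE 0.37, adjusted p = 0.00149) and by 3.09 (SE 0.38, adjusted p = 0.000251), and RMA late against RMA-KR late gave -0.87 (adjusted p = 0.655). Without RMA-KR late 1, the highest library, the value in RMA-KR late was 2.36 (adjusted p = 0.00124).

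Pecam1, whose ITIMs bind SHP-2, was at 128, 106, 109 and 128 normalized CPM in the controls, 238, 240 and 270 in RMA intermediate, 221, 229 and 276 in RMA late, and 397, 440 and 303 in RMA-KR late, and each of these groups lay above all controls. So did all 5 RMA-KR intermediate libraries, at 226, 186, 216, 242 and 237, with 0.91 log2 units (SE 0.24, adjusted p = 0.497 with edgeR, and called by DESeq2). Pecam1 rose in RMA-KR late by 1.69 log2 units (SE 0.27, adjusted p = 0.00191), a call that held without any 1 of the 7 libraries. In RMA intermediate it was 1.08 (SE 0.27, adjusted p = 0.0275), and the call was lost without any 1 of the 7 libraries: control 1 (0.0778), 2 (0.0995), 3 (0.102) or 4 (0.0804), or RMA intermediate 1 (0.0553), 2 (0.0673) or 3 (0.111). In RMA late it was 1.04 (SE 0.27, adjusted p = 0.0336), and the call was again lost without any 1 library: control 1 (0.0785), 2 (0.111), 3 (0.104) or 4 (0.0847), or RMA late 1 (0.0781), 2 (0.0923) or 3 (0.0852). RMA late against RMA-KR late gave -0.65 (adjusted p = 0.655).

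The Ly49 gene Klra7, whose product binds MHC class I, rose in RMA late by 1.31 log2 units (SE 0.21, adjusted p = 0.00103) and in RMA-KR late by 0.99 (SE 0.21, adjusted p = 0.0151). Its level was 623, 710, 903 and 555 normalized CPM in the controls, 1883, 1812 and 1495 in RMA late, and 1784, 1243 and 1142 in RMA-KR late. Ly49 genes share much of their sequence, so how reads divide among them is uncertain. In RMA-KR late the call was lost without control 1 (adjusted p = 0.0566), 2 (0.0529) or 4 (0.0733), without RMA-KR late 1 (0.148), with the replicate number as a block (0.0686), with only the compared libraries (0.0695) and without the 4 libraries low in immediate early genes (0.0529). Klrg1, a receptor for cadherins, rose in RMA late by 1.18 (SE 0.32, adjusted p = 0.0489), from 359, 493, 601 and 272 to 1086, 860 and 989 normalized CPM. Its call held without control 3 (0.0455) and was lost without control 1 (0.172), 2 (0.0917) or 4 (0.197) and without RMA late 1 (0.172), 2 (0.111) or 3 (0.0817). The other call in RMA late was Klra1, named like Pecam1 in that comparison after its values were seen, with 0.97 (SE 0.22, adjusted p = 0.0158), which was lost without control 1 (0.0750) or 4 (0.0798) and without RMA late 1 (0.138) or 2 (0.0962). In the other 3 comparisons against control edgeR called 0 of 17 in RMA early, RMA-KR early and RMA-KR intermediate, with 0, 2 and 1 at an unadjusted p under 0.05, against 7.04%, 8.71% and 5.91% of all genes, and 0, 0 and 1 called by DESeq2, against 0.551%, 1.55% and 0.530%. Between models edgeR called 0 of 17 at each stage, with 1, 3 and 5 at an unadjusted p under 0.05, against 12.3%, 14.2% and 7.31%, and 0, 1 and 1 called by DESeq2, against 3.03%, 2.90% and 0.320%. Among the calls in RMA late, those of Pecam1 (0.0557), Klrg1 (0.0901) and Klra1 (0.0660) were also lost with the replicate number as a block, and those of Pecam1 (0.0967) and Klra1 (0.0809) without the 4 libraries low in immediate early genes, as was that of Pecam1 in RMA intermediate (0.0805). Across the 7 groups edgeR called 4 of 17, against 5.69% of all genes: Tigit, Pecam1, Klra1 and Klra7. An unadjusted p under 0.05 was reached there by 10 of 17, against 21.7%, and DESeq2 called 7, against 18.9%.

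**Figure D4:**
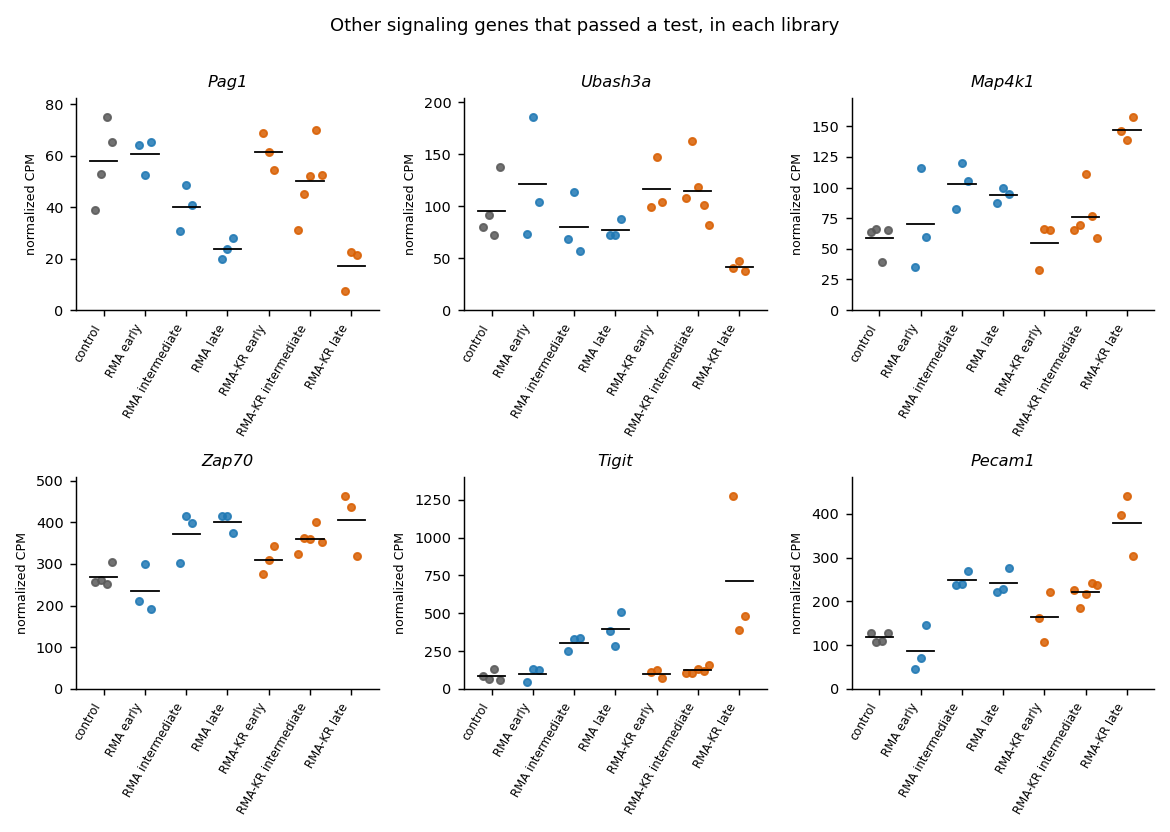
Normalized CPM (vertical axis) of Pag1, Ubash3a, Map4k1, Zap70, Tigit and Pecam1 in each library (points) by group along the horizontal axis, with a black line at the group mean. Grey is control, blue RMA and orange RMA-KR. Tigit reaches 1274 in RMA-KR late 1, and Pag1 is lowest in that library at 7.39.

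As a description with no test, the genes whose mean log2 levels over the 7 groups were most like those of Ubash3b, among 8290 genes, were Ufl1 (Pearson r = 0.988), Vamp4 (0.98) and Ofd1 (0.978). For Ptpn6 they were Ccnd3 (0.972), Nemp1 (0.963) and Sema4a (0.96). Each of the 7 points is a group mean over libraries that all these genes share.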

How the data were processed

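The authors made mRNA libraries, trimmed reads with cutadapt 1.10, removed ribosomal reads with Bowtie2 2.2.8, aligned the rest to mm10 with STAR 2.5.3a and counted them per gene with HTSeq 0.6.1p1 in union mode on Ensembl annotation. The values used are the raw counts the authors deposited, in 24 of the 112 columns of the table. Its other 48 columns per sample and the columns of the authors' comparisons, which hold fold changes, p-values and adjusted p-values, were not used. The deposited median transcript length, which the authors gave in bases and which is not a count, served only as an alternative length. The authors tested with DESeq2 1.16.1 with betaPrior=TRUE.

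The tools were edgeR 4.0.16, DESeq2 1.42.0 and limma 3.58.1 under R 4.3.3, and figures were drawn with Python 3.11.15 and matplotlib 3.10.9. Genes were kept with filterByExpr on the 7 groups (a minimum count of 10), scaled with TMM, and fitted with 1 mean per group over all 24 libraries with edgeR's robust quasi-likelihood model. P-values of the F test were adjusted by Benjamini-Hochberg over the 17097 genes, called at an adjusted p under 0.05. Each SE is the size of the log2 fold change over the square root of F, and the edgeR fit had a common biological variation (BCV) of 0.852. Comparisons set the 6 tumor groups against control and the models against each other at each stage, and tested any difference among the 7 groups. Transcript lengths and positions came from the GENCODE annotation of mm10. Intervals cover the variation between these samples, and depths are given with the results. The procedure was tested on simulated data.

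The members and the gene lists were chosen with earlier results of these data known. The 10 genes are printed with fold change, SE, interval and adjusted p where the unadjusted p is under 0.05, and otherwise as ranges, and Ptpn6 and Inpp5d also have both late intervals. From the lists (39 other negative regulators, 36 activating signaling partners, 21 inhibitory receptors), genes called against control are named, at most the 3 largest in each direction in each comparison. Genes of like pattern are the 3 with the highest Pearson correlation of group means with Ubash3b and Ptpn6, among genes above a mean log2 CPM of 3. Marker lists cover NK cells, B cells, plasma cells, T cells, macrophages and monocytes, granulocytes, red blood cells and immediate early genes. Alternatives were DESeq2 with default settings and with betaPrior=TRUE, its size factors within edgeR, a block for the replicate number, no filter or a minimum of 10 counts in each library, a fit of the compared libraries alone, leaving out each library and, chosen after the data were seen, groups of libraries left out and other transcript lengths.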

Additional observations from a re-analysis of the deposited data

Results flagged for a closer look

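Cbl in control 1 was at 314 normalized CPM, and its gap to the next of the 4 controls was 0.868 of their whole range, which is larger than chance usually gives among 4 values. Chance marks about 1 in 20 groups in this way, and 20 pairs of a gene and a group were examined, of which this was the only 1 marked. The difference of Cbl in RMA late is given in the report with and without this library.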

How the results depend on the processing

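The 35 log2 fold changes of single genes were recomputed in 521 settings: 442 kept their direction and their side of the threshold, 65 no longer passed, 8 newly passed and 6 changed sign. The sign changed for Ptpn6 in RMA late (-0.01 as reported): 0.03 with only the compared libraries, 0.05 without control 3, 0.25 without RMA late 3 (from -0.13 to 0.25 with any 1 library left out) and 0.01 without the 4 libraries low in immediate early genes. It changed for Ptpn11 without RMA early 1 and 2: -0.32 in RMA early against control and -0.41 against RMA-KR early.

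Of the counts of genes called, that across the 7 groups (1) became 3 without a filter (where 10.1% of all genes were called), 2 with 10 or more counts in every library (18.0%), 4 with DESeq2 (18.9%) and 0 without RMA early 1 and 2 (2.92%), and ran from 0 to 3 with 1 library left out. The count in RMA-KR late (1) became 0 with the replicate number as a block (0.684%), 0 with only the compared libraries (1.03%), 0 without the 4 libraries low in immediate early genes (0.574%), and 2 with DESeq2 under default settings (4.85%) and 2 with betaPrior=TRUE (5.51%), and ran from 0 to 1 with 1 library left out. That in RMA early against RMA-KR early (0) became 1 with at least 10 counts (1.28%), 1 with DESeq2 (3.03%) and 1 with betaPrior=TRUE (2.21%), and ran from 0 to 1 with 1 library left out. That in RMA intermediate (0) became 1, Ptpn6, with only the compared libraries (10.2% of all genes; adjusted p = 0.0484, over a range of 0.0484 to 0.565 in all settings of that result). That in RMA early (0) ran from 0 to 1 with 1 library left out. The other 5 counts stayed at 0 in every setting. The cause was not tested for any of these.

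With the replicate number as a block, edgeR called 0 of the 10 genes in each of the 9 comparisons and 1, Ubash3b, across the 7 groups (adjusted p = 0.0248). Ptpn22 in RMA-KR late then had an adjusted p of 0.134, over a range of 0.00519 to 0.426 in all settings. Residuals of libraries with the same number correlated between -0.118 and 0.202 over 28 pairs, with 2 over 0.1 and in 0 of 9 comparisons all pairs over 0.1, and the numbers were not treated as pairs. DESeq2's size factors moved the median of all genes by at most 0.07. Alternatives that leave out groups of libraries or change the transcript length were chosen after the data were seen. Each of the 10 genes had at least 414 counts in every library.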
